A study of Mus musculus with 9 samples.

Results

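Gene expression in mouse embryoid bodies labelled EBD5 was compared with that in embryoid bodies labelled EBD2, across every gene with enough counts to test. The members are 6 of the 9 RNA-seq libraries of the series, 3 per group, chosen by their labels and not by any measured value. Of 54232 gene rows, 16168 passed the filter on low counts and were tested. All libraries came from wild-type mouse embryonic stem cells, the pluripotent cells of the blastocyst in culture, and no deletion or drug is named for either group. Each group is given in the labels only as an embryoid body differentiation with a number (EBD2, EBD5 or EBD6), and what the number counts is not given in the sources used here. The labels give "embryonic stem cells" as the cell type of every library, and the name of the cell line, its sex and its clone are likewise not given. The third group, EBD6, was used to estimate the spread between samples and its levels are given beside some results.

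RNA was extracted with Trizol, captured on oligo-dT beads and sequenced on 2 models of Illumina instrument, and which library ran on which is not given in the labels. Total expected counts were 5613460 to 5884871 in the EBD2 libraries and 5646107 to 6376819 in the EBD5 libraries. EBD2 replicates 1 and 2 did not differ beyond sampling noise (chi-square per gene 0.949), and neither did EBD6 replicates 2 and 3 (1.01), against 1.21 to 4.31 in the other pairs. Each of these 2 pairs was summed and counted as 1 sample, which leaves n = 2 for EBD2 and n = 3 for EBD5. Separate cultures are not stated for the replicates, and the p-values therefore reflect spread among libraries that may be only technical. The EBD5 libraries stood apart in ways that touch many results: ribosomal, mitochondrial and pseudogene sequences were more abundant in them, and their levels followed the GC content of genes. Values with a correction for GC content and transcript length are therefore given beside the gene groups, and beside single genes where it moved the fold by more than 1.5 times.

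An embryoid body is an aggregate of stem cells that starts to differentiate in suspension. Its outer cells typically become extraembryonic endoderm, the tissue that in the embryo forms the yolk sac. There, visceral endoderm takes up maternal proteins through the receptors cubilin and megalin, digests them in lysosomes and secretes lipoproteins and serum proteins much as the later liver does. Parietal endoderm lays down a thick basement membrane of laminin and type IV collagen. Levels below are in CPM, counts scaled to a common library total after TMM normalization, and they are not divided by gene length. Since these are bulk libraries, fewer cells of a type and less RNA per cell cannot be told apart.

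Some genes were essentially absent from EBD2 and clearly present in EBD5. By a rule of at most 0.5 CPM in every library of the low group and at least 5 CPM in every library of the high group, 133 genes were on in EBD5 and off in EBD2, and 16 were on in EBD2 and off in EBD5. Of the 133, 51 were protein-coding and 72 were processed pseudogenes. RefSeq promoters (build GRCm38.p6, from 250 bases before to 50 bases after the start) were matched by symbol for 43 of the 51 protein-coding genes, and for 10718 tested protein-coding genes in all. The letters AGATAA, a core bound by GATA factors, or their reverse complement TTATCT were found in 6 of the 43 promoters (14.0%), against 5.99% of the 10718. The 6 include several related Pilr genes of chromosome 5, whose matches may not be independent. GTTAAT or ATTAAC, a core of the site bound by the hepatocyte factor HNF1, was found in 4 of the 43 (9.30%) against 4.32%. TGTTTAC or GTAAACA, a forkhead core, was found in 2 (4.65%) against 2.61%. The E-box CACGTG was found in 3 (6.98%) against 9.96%. ACAAAG or CTTTGT, a core shared by Sox and TCF factors, was found in 8 (18.6%) against 13.7%, and the 8 also include Pilr genes. These are matches of letters and not measured binding sites, and the choice of genes and motifs was made after the values were seen.

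The promoters of 5 genes with the GATA or HNF1 letters are shown, because they belong to genes whose proteins figure in the results below: the hepatocyte glucokinase regulator Gckr, the plasmin inhibitor Serpinf2, the YAP target Ankrd1, the fibrinogen chain Fgb and the plasma protease Habp2. Each line gives the 250 bases before the start, 5′ to 3′ on the gene's strand, with the matched letters in capitals. Gckr lies on the plus strand (chr5:31297313-31297562), and its 2 matches, GTTAAT and then AGATAA, do not overlap. Serpinf2 (chr11:75439502-75439751), Ankrd1 (chr19:36119845-36120094) and Fgb (chr3:83049864-83050113) lie on the minus strand. Habp2 lies on the plus strand (chr19:56287662-56287911).
Gckr: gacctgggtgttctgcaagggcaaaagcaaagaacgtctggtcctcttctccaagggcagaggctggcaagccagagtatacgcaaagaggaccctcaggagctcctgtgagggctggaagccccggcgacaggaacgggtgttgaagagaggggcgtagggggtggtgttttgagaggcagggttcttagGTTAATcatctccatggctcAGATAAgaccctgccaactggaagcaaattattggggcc
Serpinf2: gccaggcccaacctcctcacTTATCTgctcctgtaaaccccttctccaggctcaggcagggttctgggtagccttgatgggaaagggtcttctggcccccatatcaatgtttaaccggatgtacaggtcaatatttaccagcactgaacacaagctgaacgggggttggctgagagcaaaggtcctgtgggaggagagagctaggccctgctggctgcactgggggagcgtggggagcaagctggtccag
Ankrd1: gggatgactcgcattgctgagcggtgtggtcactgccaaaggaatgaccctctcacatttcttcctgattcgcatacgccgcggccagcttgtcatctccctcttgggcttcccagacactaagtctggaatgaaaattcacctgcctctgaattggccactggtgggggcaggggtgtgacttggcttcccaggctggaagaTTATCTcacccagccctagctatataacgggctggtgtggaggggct
Fgb: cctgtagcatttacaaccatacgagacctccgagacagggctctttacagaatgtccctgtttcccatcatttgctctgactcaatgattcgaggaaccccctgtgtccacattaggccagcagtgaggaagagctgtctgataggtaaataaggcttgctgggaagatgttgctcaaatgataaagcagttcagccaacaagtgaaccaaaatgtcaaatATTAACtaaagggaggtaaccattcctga
Habp2: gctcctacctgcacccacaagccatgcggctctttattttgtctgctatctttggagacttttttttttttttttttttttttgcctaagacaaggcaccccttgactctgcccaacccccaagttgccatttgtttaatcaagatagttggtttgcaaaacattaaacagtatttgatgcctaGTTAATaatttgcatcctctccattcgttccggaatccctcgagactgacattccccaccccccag

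The 5 genes were at or near 0 in EBD2. Fgb was measured at 0, 0 and 0.176 CPM in the EBD2 libraries and 37.8, 36.6 and 35.3 CPM in the EBD5 libraries, a ratio of 648 (exact 95% counting interval 116 to 25616) that rests on 1 count in EBD2 replicate 3. Without that library its fitted log2 fold change moved from 9.02 to 11.47. Habp2 was measured at 0, 0 and 0.176 CPM in the EBD2 libraries and 16.9, 16.9 and 17.0 CPM in the EBD5 libraries, a ratio of 299.6 (exact 95% counting interval 53.3 to 11874), and its log2 fold change moved from 7.91 to 10.36 without EBD2 replicate 3. Gckr was measured at 0, 0.163 and 0.176 CPM in the EBD2 libraries and 7.19, 6.69 and 7.74 CPM in the EBD5 libraries, a ratio of 63.6 (exact 95% counting interval 17.2 to 531). Ankrd1 had no count in any EBD2 library and 6.29, 6.18 and 6.61 CPM in EBD5, at least 37.5-fold higher against a floor of 3 counts over the group. Serpinf2 likewise had no count in EBD2 and 5.93, 5.18 and 7.37 CPM in EBD5, at least 36.1-fold higher.

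Changes were spread over much of the transcriptome. At an edgeR quasi-likelihood adjusted p under 0.05, 5641 genes were higher in EBD5 (34.9% of those tested) and 5678 were lower (35.1%), 70.0% in all, and the median log2 fold change over all tested genes was -0.01. In 77.8% of tested genes the libraries of the groups did not overlap. Absence of overlap was also a condition by which many genes below were chosen, so it adds no support there. Many of the differences were small: 2972 genes were higher (18.4%) and 2634 lower (16.3%) by a test against a fold of 1.5. Past a log2 fold change of 3 the split was uneven, with 879 genes higher and 277 lower. Because a call is the usual outcome here, each gene group below is read against 34.9% higher and 35.1% lower, or 33.6% and 34.0% with the GC and length correction. These shares cover all gene classes. Of the 13752 protein-coding genes, which make up most lists, 4413 were higher and 5222 lower (4364 and 4922 with the correction). The share lower was thus larger among them, and mild leans toward lower stand out less. Lists share some members, such as Slc2a3 in sugar transport and glycolysis.

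**Figure D1:**
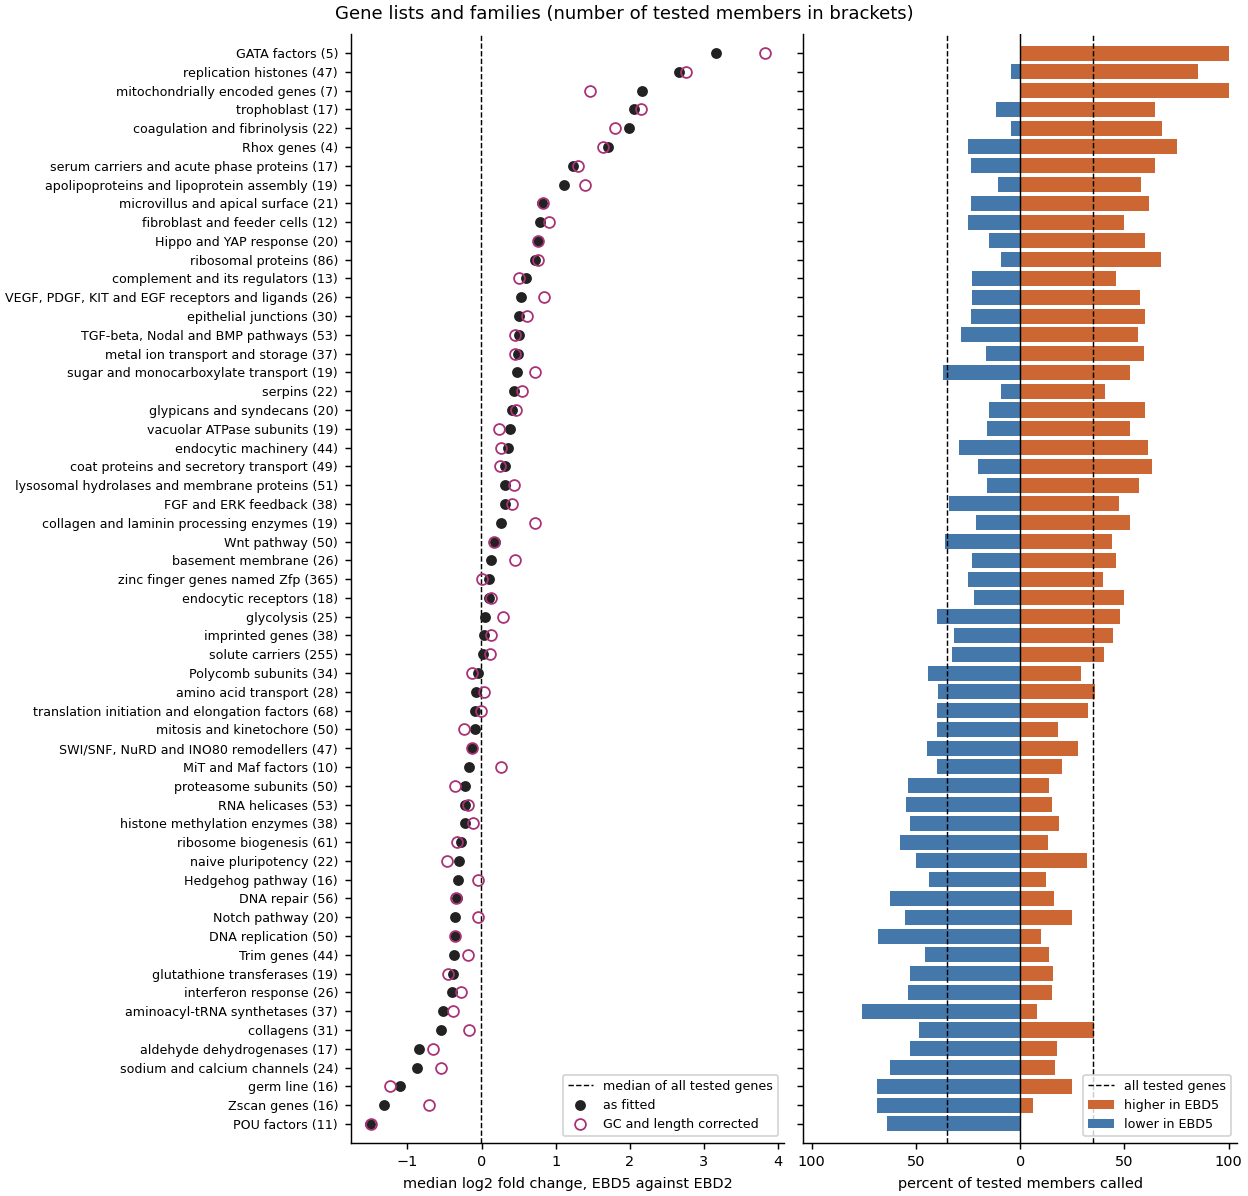
Gene lists and name families ordered by the median log2 fold change of their tested members, EBD5 against EBD2 (left; filled, as fitted; open, with GC and length correction), and the percent of tested members called higher or lower (right). The dashed lines give the median and the percents of all tested genes. Coagulation, serum carrier and apical surface lists lie to the right, and POU, Zscan and germ line genes lie to the left.

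Uptake was the first of the visceral endoderm functions examined beyond cubilin itself. Megalin (Lrp2), the large receptor that partners cubilin, rose from 301 ± 2.22 CPM (SD, n = 2) to 818 ± 13.3 CPM (SD, n = 3) (log2 fold change 1.44 ± 0.07 SE, edgeR adjusted p = 1.7e-08). Every EBD5 library was above every EBD2 library, and the EBD6 mean of 263 CPM lay near that of EBD2. Its chaperone Lrpap1 rose 2.37-fold and the lipoprotein receptor Vldlr 3.49-fold. Amn, which carries cubilin to the membrane, was measured at 0.339, 0.163 and 0 CPM in the EBD2 libraries and 13.3, 14.9 and 10.95 CPM in the EBD5 libraries, a ratio of 77.4 (exact 95% counting interval 26.2 to 378). Its log2 fold change moved from 6.16 to 7.05 without EBD2 replicate 1, and to 6.79 with the correction. The sorting receptor Sorl1 went the other way and fell 1.63-fold. Of 18 tested endocytic receptors, 9 were higher and 4 lower (9 and 3 with the correction), median log2 fold change 0.10.

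The machinery that carries receptors inward rose in more members than it fell. Of 44 tested genes 27 were higher and 13 lower, median 0.35, and with the correction 25 were higher and 7 lower. Dab2, the clathrin adaptor that binds megalin, stood at 16.3, 16.2 and 18.5 CPM in the EBD2 libraries and 846, 787 and 845 CPM in the EBD5 libraries (log2 fold change 5.59 ± 0.11 SE, edgeR adjusted p = 5.2e-11). Myo6, the motor that walks inward along actin in microvilli, stood at 63.6, 70.97 and 66.2 CPM in the EBD2 libraries and 268, 247 and 279.9 CPM in the EBD5 libraries. These levels differ 48.3-fold and 3.96-fold. Synj2, a phosphoinositide phosphatase, rose 4.23-fold and Rab17, a small GTPase of apical recycling, 6.11-fold. Some general clathrin components fell: the pit nucleator Fcho1 3.77-fold (log2 -1.91, and -1.26 with the correction), the clathrin light chain Cltb 1.84-fold and dynamin 2 (Dnm2) 1.81-fold.

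Several lysosomal proteases rose strongly. Cathepsin H (Ctsh) stood at 1.7, 1.79 and 0.881 CPM in the EBD2 libraries and 100.7, 107 and 101.2 CPM in the EBD5 libraries (log2 fold change 6.12 ± 0.16 SE, edgeR adjusted p = 3.3e-10), and its EBD6 mean was 129 CPM. Cathepsin C (Ctsc) stood at 46.3, 47.5 and 51.2 CPM in the EBD2 libraries and 469, 434 and 501 CPM in the EBD5 libraries, a 9.6-fold difference. Ctsh was low in every EBD2 library, whereas Ctsc was already clearly expressed there. Cathepsin L (Ctsl) rose 4.01-fold, the asparaginyl protease legumain (Lgmn) 3.24-fold and the membrane glycoprotein Lamp1 2.36-fold. Acid phosphatase 5 (Acp5) fell 2.77-fold and beta-glucuronidase (Gusb) 1.69-fold. In all, 29 of 51 lysosomal hydrolases and membrane proteins were higher and 8 lower, median 0.31 (36 and 7 with the correction). The vacuolar ATPase acidifies these compartments, and 10 of its 19 tested subunits and accessory proteins were higher and 3 lower, median 0.39 (10 and 6 with the correction). Atp6v1g1 rose 4.47-fold and Atp6v0a1 2.38-fold, whereas Atp6v0a4, the renal form of the same membrane subunit, fell 2.29-fold.

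Genes of lipoprotein export rose as well. Apolipoprotein B (Apob), the core protein of secreted lipoproteins, stood at 4.41, 3.43 and 2.11 CPM in the EBD2 libraries and 840.4, 909 and 859.8 CPM in the EBD5 libraries (log2 fold change 8.03 ± 0.15 SE, edgeR adjusted p = 5.2e-11). Mttp, which loads lipid onto it, stood at 19.5, 20.6 and 16.9 CPM in the EBD2 libraries and 194, 202 and 211 CPM in the EBD5 libraries. Both were also high in EBD6, at 490.0 and 143 CPM. Apoc2, the cofactor of lipoprotein lipase, rose 10.8-fold and Dgat2, which makes triglyceride, 5.84-fold. Members that fell were Apoa2, which fell by a log2 change of -1.20 and the phospholipid transfer protein Pltp, by -1.65 (-0.92 with the correction). Of 19 tested, 11 were higher and 2 lower, median 1.11 (1.40 with the correction).

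Among serum carriers, 11 of 17 were higher and 4 lower, median 1.24 (12 higher and 3 lower with the correction). Rbp4, the carrier of retinol, rose from 3.004 ± 0.484 CPM (SD, n = 2) to 61.1 ± 5.54 CPM (SD, n = 3), 21.1-fold (log2 4.40, and 5.03 with the correction). Fetub, a liver-secreted protease inhibitor, ran against the list at 28.3, 28.2 and 24.8 CPM in the EBD2 libraries and 0, 0 and 0.944 CPM in the EBD5 libraries, so it was absent from 2 of the 3 EBD5 libraries. Its log2 fold change of -6.43 rests on few EBD5 counts: it was -11.03 without EBD5 replicate 3 and -5.81 without EBD5 replicate 2. Serpina3m, an inhibitor of the serpin family, also fell 20.5-fold, while 9 of 22 tested serpins were higher and 2 lower (10 and 4 with the correction).

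Genes of blood clotting and clot dissolution formed the secreted list with the fewest falls. Of 22 tested of 32 listed, 15 were higher and 1 lower, median 1.99 (1.80 with the correction). Coagulation factor V (F5) stood at 3.9, 2.28 and 3.17 CPM in the EBD2 libraries and 73.2, 74.7 and 66.7 CPM in the EBD5 libraries (log2 fold change 4.52 ± 0.15 SE, edgeR adjusted p = 1.8e-09), and at a mean of 10.2 CPM in EBD6. Protein S (Pros1), an anticoagulant cofactor, stood at 3.05, 3.1 and 2.29 CPM in the EBD2 libraries and 46.7, 44.0 and 44.8 CPM in the EBD5 libraries. Tissue factor pathway inhibitor (Tfpi) rose 4.24-fold. For these 3 genes the EBD5 libraries were close together and far above EBD2. Tissue plasminogen activator (Plat) rose 22.5-fold. Plasminogen (Plg), the fibrinogen chain Fga and factor X (F10) had no count in EBD2 and averaged 2.31, 1.83 and 1.58 CPM in EBD5. Against the floor of 3 counts those levels are at least 13.7-fold, at least 10.9-fold and at least 9.46-fold higher. Fgg, the remaining fibrinogen chain, stood at 0, 0.653 and 0.176 CPM in the EBD2 libraries and 5.21, 4.68 and 6.61 CPM in the EBD5 libraries, and its log2 fold change went from 4.22 to 5.77 without EBD2 replicate 2. The member that fell was Vwf, an adhesive protein of endothelium, at 5.26, 3.59 and 2.11 CPM in the EBD2 libraries and 1.98, 1.84 and 2.08 CPM in the EBD5 libraries (log2 fold change -0.83 ± 0.34 SE, edgeR adjusted p = 0.047), with EBD2 replicate 3 close to the EBD5 libraries. This call was lost when any library but EBD2 replicate 3 was left out, with log2 fold changes of -0.90 to -0.53, and with the correction (-0.70). Among complement genes the membrane regulators Cd55 and Cd59a rose 5.09-fold and 8.15-fold.

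**Figure D2:**
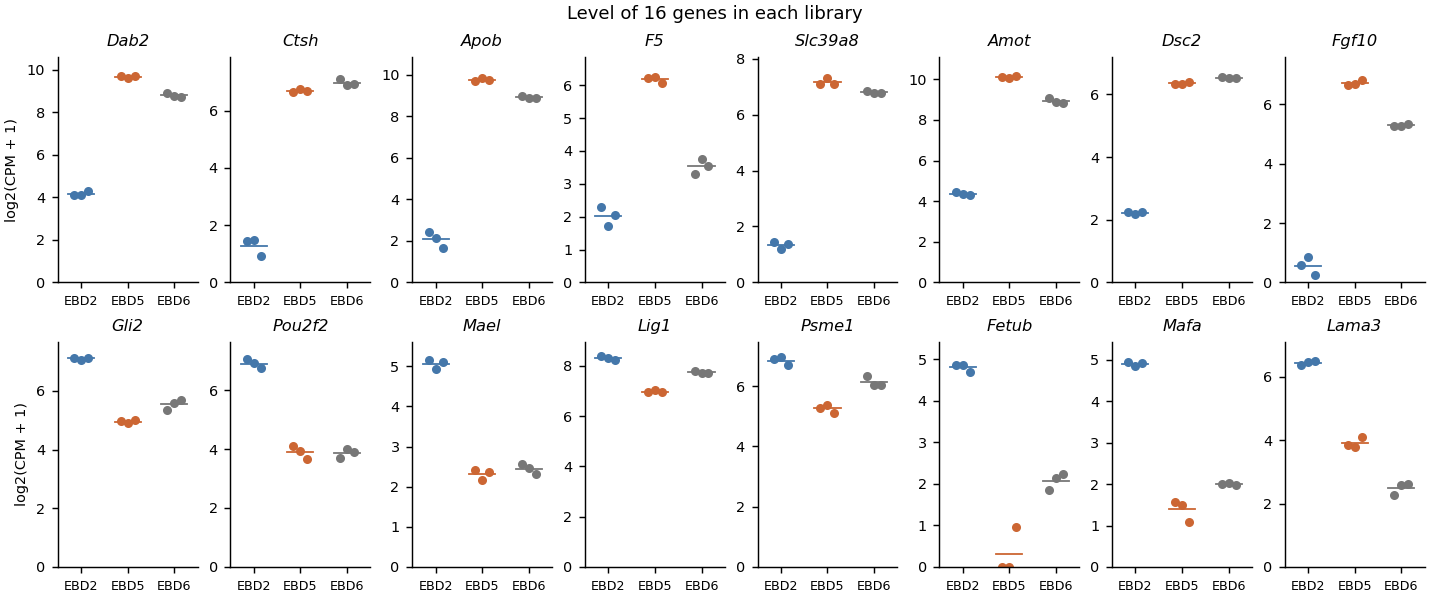
Levels of 16 genes in each library, as log2(CPM + 1), with each group's mean as a line. Upper row: genes of uptake, digestion, export, metal transport, Hippo signalling, junctions and FGF signalling, all higher in EBD5 than in EBD2. Lower row: genes lower in EBD5, with Fetub at 0 in 2 of the 3 EBD5 libraries.

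Matrix genes moved in both directions. Col4a1, a type IV collagen chain, stood at 86.2, 86.1 and 66.7 CPM in the EBD2 libraries and 470.3, 495 and 486 CPM in the EBD5 libraries, and the EBD6 mean was 984 CPM. Its partner Col4a2 rose 4.16-fold (log2 2.06, and 2.64 with the correction) and the collagen-binding protein Sparc 3.94-fold. The laminin chain Lamb1 rose 2.54-fold, whereas Lama3, the laminin chain of epithelial anchorage, stood at 82.6, 86.8 and 89.5 CPM in the EBD2 libraries and 13.3, 12.9 and 16.2 CPM in the EBD5 libraries (log2 fold change -2.62 ± 0.11 SE, edgeR adjusted p = 7.9e-09). Nidogen 1 (Nid1), which bridges laminin and collagen IV, fell 1.95-fold and Col18a1 3.07-fold. So 12 of 26 basement membrane genes were higher and 6 lower, median 0.12 (16 and 5 with the correction, median 0.45). Over all collagens 11 of 31 were higher and 15 lower, median -0.55, and -0.17 with the correction. Col6a5 and Col9a2 fell 12.7-fold and 10.4-fold (log2 -3.38, and -2.64 with the correction for Col9a2). Enzymes and chaperones of collagen rose in 10 of 19 and fell in 4 (14 and 2 with the correction). P3h2, a prolyl hydroxylase, rose 15.4-fold, the crosslinking oxidase Loxl2 8.51-fold and the collagen chaperone Serpinh1 2.37-fold. The protease inhibitor Timp3 rose from 18.2 ± 1.88 CPM (SD, n = 2) to 122 ± 1.22 CPM (SD, n = 3). Cell-surface heparan sulfate carriers rose too, Gpc3 5.22-fold and Gpc4 5.69-fold, with 12 of 20 members of that list higher and 3 lower (15 higher and 2 lower with the correction).

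Many genes of a polarised epithelium were higher. Desmocollin 2 (Dsc2), a desmosomal cadherin, stood at 3.73, 3.59 and 3.7 CPM in the EBD2 libraries and 79.3, 80.2 and 83.9 CPM in the EBD5 libraries (log2 fold change 4.46 ± 0.11 SE, edgeR adjusted p = 1.6e-10). Desmoplakin (Dsp), which ties desmosomes to keratin, stood at 31.2, 29.7 and 27.6 CPM in the EBD2 libraries and 200.3, 202 and 203 CPM in the EBD5 libraries. The groups are separated 22.0-fold and 6.87-fold, and EBD6 was as high as EBD5 or higher for both (92.6 and 279.8 CPM). The keratins Krt18 and Krt19 of simple epithelia rose 2.65-fold and 12.6-fold. Claudins, the strands of tight junctions, split: Cldn6 rose 3.17-fold and Cldn3 fell 4.82-fold (log2 -2.27, and -1.64 with the correction). Grhl2, a transcription factor of epithelial identity, fell 2.47-fold. In all 18 of 30 junction genes were higher and 7 lower (22 and 3 with the correction). At the apical face, the transmembrane mucin Muc13 stood at 0.339, 0.326 and 0.352 CPM in the EBD2 libraries and 58.1, 59.0 and 62.0 CPM in the EBD5 libraries. The sialomucin podocalyxin (Podxl) stood at 206, 214 and 212 CPM in the EBD2 libraries and 813, 808 and 812 CPM in the EBD5 libraries. The ezrin-binding protein Clic5 rose 7.12-fold. Pdzk1, a scaffold of the brush border, fell 2.11-fold. The apical list had 13 of 21 higher and 5 lower, median 0.81 (14 higher and 5 lower with the correction).

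Secretory transport rose in 31 of 49 genes and fell in 10, median 0.32 (29 higher and 12 lower with the correction). The cargo receptor Tmed2 rose 6.64-fold and the retrieval receptor Kdelr3 4.08-fold. The minor coatomer subunit Copz2 fell from 36.3 ± 0.194 CPM (SD, n = 2) to 5.43 ± 1.13 CPM (SD, n = 3).

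Membrane transporters moved in both directions as a class, 102 of 255 solute carriers higher and 83 lower, median 0.02 (110 higher and 78 lower with the correction). Carriers of metal ions stood apart from that balance, with 22 of 37 higher and 6 lower, median 0.49 (20 and 8 with the correction). Slc39a8, an importer of zinc and manganese, stood at 1.7, 1.31 and 1.58 CPM in the EBD2 libraries and 137, 156 and 136 CPM in the EBD5 libraries (log2 fold change 6.54 ± 0.14 SE, edgeR adjusted p = 9.8e-11). Ferroportin (Slc40a1), the exporter of iron, stood at 20.5, 22.8 and 17.3 CPM in the EBD2 libraries and 151.2, 161 and 153 CPM in the EBD5 libraries. The zinc exporter Slc30a4 rose 5.36-fold and the copper pump Atp7b 5.78-fold, and the metal-binding metallothionein Mt2 fell 1.74-fold. Among carriers of fuel, the monocarboxylate transporter Slc16a1 rose 4.49-fold and the high-affinity glucose transporter Slc2a3 4.06-fold, in a list with 10 of 19 higher and 7 lower (11 higher and 6 lower with the correction, and 5 and 6 by the fold of 1.5). Slc7a8 and Slc7a9, which carry neutral and cationic amino acids across epithelia, rose 12.4-fold and 18.4-fold, but the amino acid transport list as a whole was split, with 10 of 28 higher and 11 lower, median -0.07 (10 higher and 10 lower with the correction). The phosphate carrier Slc34a2 stood at 0, 0.163 and 0 CPM in the EBD2 libraries and 36.1, 34.9 and 33.6 CPM in the EBD5 libraries, a ratio of 618 (exact 95% counting interval 111 to 24454), and its log2 fold change went from 8.96 to 11.17 without EBD2 replicate 2. The calcium-binding protein S100g and the water channel Aqp8 had no count in EBD2 and averaged 8.45 and 9.14 CPM in EBD5. Voltage-gated sodium and calcium channel subunits went down, 15 of 24 lower and 4 higher, median -0.87 (-0.55 with the correction). Cacng6 fell 3.76-fold and Scn3b rose 2.63-fold.

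Signalling genes were examined by ligand, receptor and target. In the TGF-beta, Nodal and BMP list 30 of 53 were higher and 15 lower, median 0.51 (30 higher and 11 lower with the correction). The ligand Bmp2 stood at 0, 0.326 and 0.176 CPM in the EBD2 libraries and 46.9, 52.1 and 57.2 CPM in the EBD5 libraries, a ratio of 307 (exact 95% counting interval 104.7 to 1491). Its log2 fold change moved from 8.15 to 9.01 without EBD2 replicate 2. The ligand Tgfb2 rose by 3.88 on the log2 scale, or by 4.47 without EBD2 replicate 2, and the co-receptor betaglycan (Tgfbr3) from 4.39 ± 1.27 CPM (SD, n = 2) to 100.97 ± 1.96 CPM (SD, n = 3). The activin subunit Inhbb and the inhibitory Smad6 fell 24.0-fold (log2 -4.58, and -3.96 with the correction) and 4.61-fold (log2 -2.21, and -1.47 with the correction).

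Hedgehog genes split by role. The ligand Ihh, made by visceral endoderm in the embryo, stood at 0.17, 0.326 and 0.176 CPM in the EBD2 libraries and 10.6, 9.53 and 8.12 CPM in the EBD5 libraries (log2 fold change 5.30 ± 0.33 SE, edgeR adjusted p = 1.7e-07, and 6.05 with the correction). The transcription factor Gli2, which carries the signal, stood at 139, 133 and 137 CPM in the EBD2 libraries and 30.4, 28.7 and 30.8 CPM in the EBD5 libraries. Gli1, a target that also transmits the signal, stood at 51.2, 50.9 and 47.2 CPM in the EBD2 libraries and 11.1, 10.9 and 8.69 CPM in the EBD5 libraries. Ligand and effectors thus moved in opposite directions. Targets and brakes of the pathway were also lower: the decoy receptor Hhip 7.56-fold and the receptor Ptch1 1.5-fold, as was the ciliary regulator Kif7 (2.68-fold, log2 -1.42, and -0.77 with the correction). The transducer Smo rose 1.57-fold. Of 16 tested members 2 were higher and 7 lower, median -0.31. With the correction the counts were 4 and 6 and the median -0.05.

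Fibroblast growth factors showed exchanges among ligands. Fgf10 stood at 0.509, 0.816 and 0.176 CPM in the EBD2 libraries and 100.1, 103 and 113 CPM in the EBD5 libraries (log2 fold change 7.66 ± 0.19 SE, edgeR adjusted p = 2.1e-10), near 0 in EBD2 and high in every EBD5 library. Fgf5 and Fgf8, ligands of the early epiblast and streak, rose 2.07-fold and 2.27-fold (log2 1.19, and 1.81 with the correction for Fgf8), whereas Fgf4 and Fgf15 fell 1.59-fold and 2.51-fold. The receptors Fgfr2 and Fgfr3 rose 2.5-fold and 8.74-fold (log2 3.13, and 3.74 with the correction for Fgfr3), and Klb, the co-receptor for endocrine FGFs, stood at 1.02, 0.163 and 0.704 CPM in the EBD2 libraries and 26.2, 22.9 and 23.8 CPM in the EBD5 libraries. Members of the FGF and ERK feedback list were higher in 18 and lower in 13 of 38, median 0.31 (22 higher and 9 lower with the correction). In the Wnt list 22 of 50 were higher and 18 lower (22 higher and 14 lower with the correction). Wnt11 was measured at 0.17, 0.163 and 0 CPM in the EBD2 libraries and 10.6, 8.86 and 10.6 CPM in the EBD5 libraries, a ratio of 88.3 (exact 95% counting interval 24.1 to 735), while Wnt8a fell 17.3-fold. Notum, a secreted enzyme that inactivates Wnt proteins, stood at 12.2, 11.75 and 13.7 CPM in the EBD2 libraries and 0.539, 0.669 and 1.7 CPM in the EBD5 libraries. Its log2 fold change was -3.72, -2.99 with the correction and -4.36 without EBD5 replicate 3.

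The Hippo list moved mainly upward, with 12 of 20 higher and 3 lower, median 0.76 (16 and 1 with the correction). Angiomotin (Amot, chrX:145446425-145505181 in mm10), a junctional protein that binds YAP, stood at 20.5, 19.09 and 18.7 CPM in the EBD2 libraries and 1104, 1077 and 1154 CPM in the EBD5 libraries (log2 fold change 5.84 ± 0.11 SE, edgeR adjusted p = 5.2e-11). All EBD5 libraries were far above the EBD2 libraries, and the EBD6 mean was 501 CPM. The YAP targets Ccn1 and Ccn2 rose 8.2-fold and 2.38-fold and the kinase Lats2 2.16-fold. Merlin (Nf2), an upstream activator of the pathway, fell 1.68-fold.

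Growth factors and their receptors rose in 15 of 26 and fell in 6, median 0.54 (0.84 with the correction). The receptor Pdgfra, a marker of primitive endoderm, stood at 1.36, 1.47 and 1.58 CPM in the EBD2 libraries and 68.0, 67.02 and 67.1 CPM in the EBD5 libraries. The KIT ligand Kitl stood at 7.3, 7.99 and 7.4 CPM in the EBD2 libraries and 104.8, 99.6 and 113 CPM in the EBD5 libraries. The ERBB ligand Nrg1 stood at 5.43, 5.55 and 3.17 CPM in the EBD2 libraries and 70.5, 75.7 and 67.6 CPM in the EBD5 libraries. All 3 were far above EBD2 in every EBD5 library. Vegfa, its receptor Flt1 and the hepatocyte growth factor receptor Met rose 3.69-fold, 7.03-fold and 7.31-fold. Pdgfc fell 4.77-fold. The imprinted growth factor Igf2 stood at 18.0, 19.4 and 17.4 CPM in the EBD2 libraries and 258, 241 and 254 CPM in the EBD5 libraries, and the neighbouring H19 RNA rose 2.75-fold. Other imprinted genes that rose included Peg10 (5.12-fold) and Grb10 (8.03-fold), with 17 of 38 imprinted genes higher and 12 lower (18 higher and 9 lower with the correction). In the Notch list the ligand Dll1 and the receptor Notch4 fell 3.35-fold and 4.02-fold (log2 -2.01, and -1.41 with the correction for Notch4), and the nuclear mediator Rbpj and the targets Hes1 and Hey1 rose 2.03-fold, 1.79-fold and 1.59-fold. Its counts of 5 higher and 11 lower of 20 became 6 and 6 with the correction, so the lean toward lower moved with GC content and length.

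Transcription factor families changed in contrasting ways. All 5 tested GATA factors were higher, among them the blood and trophoblast members at low levels: Gata2 stood at 2.04, 2.12 and 0.704 CPM in the EBD2 libraries and 5.57, 5.18 and 5.29 CPM in the EBD5 libraries. Gata3 stood at 1.7, 3.26 and 1.76 CPM in the EBD2 libraries and 9.35, 9.53 and 10.95 CPM in the EBD5 libraries. Gata1 was at 0.17, 0 and 0 CPM in the EBD2 libraries and 2.16, 1.67 and 2.46 CPM in the EBD5 libraries, a ratio of 36.8 (exact 95% counting interval 6.18 to 1494), and its log2 fold change moved from 4.91 to 7.12 without EBD2 replicate 1. Foxq1 rose 17.7-fold and Runx1 24.4-fold. POU factors went down, 7 of 11 tested, median -1.50 (0 higher and 7 lower with the correction). Pou2f2 (Oct2) stood at 131, 119.8 and 106 CPM in the EBD2 libraries and 16.4, 14.2 and 11.5 CPM in the EBD5 libraries (log2 fold change -3.05 ± 0.13 SE, edgeR adjusted p = 8.0e-09), and Pou6f1 fell 5.06-fold. Pou5f1 did not pass the test (log2 fold change -0.19 ± 0.10 SE, edgeR adjusted p = 0.095). In the MiT and Maf family, Mafa stood at 29.7, 27.9 and 29.6 CPM in the EBD2 libraries and 1.98, 1.84 and 1.13 CPM in the EBD5 libraries, falling 17.4-fold (log2 -4.12, and -3.39 with the correction), and Tfe3 fell 1.41-fold. The 2 members that rose, Tfec and Maf, did so from near 0. Tfec had no count in EBD2 and 84.0, 81.1 and 89.1 CPM in EBD5, at least 499-fold higher. Maf stood at 0, 0.163 and 0 CPM in the EBD2 libraries and 59.1, 57.5 and 63.7 CPM in the EBD5 libraries, a ratio of 1062 (exact 95% counting interval 190.1 to 41974), and its log2 fold change went from 9.74 to 11.96 without EBD2 replicate 2. Of its 10 members 2 were higher and 4 lower as fitted, and 5 and 4 with the correction. Zscan zinc finger genes fell in 11 of 16 and rose in 1 (Zscan26, 1.61-fold; 1 higher and 12 lower with the correction), and Zscan10 fell 2.46-fold. Zscan5b fell by 3.44 on the log2 scale, and by 4.05 without EBD5 replicate 3. Trim genes fell in 20 of 44 and rose in 6 (6 higher and 18 lower with the correction), with Trim52 down 14.8-fold and the stem cell ubiquitin ligase Trim71 up 2.46-fold. The 365 tested genes named Zfp showed no stable lean: 145 higher and 91 lower as fitted, and 109 and 121 with the correction.

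Naive pluripotency genes diverged by gene and were not lost together, while formative and primed epiblast genes leaned lower. Of 18 tested formative and primed genes 4 were higher and 13 lower, median -0.86 (6 and 10 with the correction, median -0.52). Of 22 naive pluripotency genes 7 were higher and 11 lower, median -0.30 (6 and 14 with the correction). Klf2, a core naive factor, stood at 113, 122 and 114 CPM in the EBD2 libraries and 34.5, 36.1 and 27.8 CPM in the EBD5 libraries (log2 -1.82, and -1.20 with the correction). Prdm14, a repressor of differentiation, stood at 27.0, 26.3 and 28.4 CPM in the EBD2 libraries and 7.19, 8.19 and 9.44 CPM in the EBD5 libraries. Klf5 stood at 69.6, 68.4 and 64.8 CPM in the EBD2 libraries and 145, 139.6 and 147 CPM in the EBD5 libraries, and Dppa3 (Stella) rose 3.22-fold. The groups did not overlap in any of these, which was a condition for naming many of the genes. Utf1, a chromatin-bound stem cell protein, fell 2.65-fold (log2 -1.41, and -0.79 with the correction).

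Germ line genes fell in 11 of 16 and rose in 4, median -1.09 (3 higher and 12 lower with the correction). Mael, a factor of piRNA-mediated transposon silencing, stood at 34.4, 29.5 and 33.3 CPM in the EBD2 libraries and 4.31, 3.51 and 4.16 CPM in the EBD5 libraries (log2 fold change -3.03 ± 0.15 SE, edgeR adjusted p = 2.6e-08). Dazl, an RNA-binding protein of germ cells, stood at 46.7, 42.6 and 50.4 CPM in the EBD2 libraries and 10.1, 9.69 and 8.31 CPM in the EBD5 libraries. Dnd1 and the helicase Ddx4 fell 3.99-fold and 2.14-fold. Gtsf1, a piRNA factor, averaged 6.95 CPM in EBD2 and 0.174 CPM in EBD5, a ratio of 37.7 (exact 95% counting interval 12.6 to 186). Its log2 fold change was -5.16, or -6.02 without EBD5 replicate 2. Xlr3c and Xlr4a, whose near-identical copies share reads and make their counts uncertain, fell 25.7-fold and 22.9-fold, with corrected log2 fold changes of -5.39 and -5.18 against -4.68 and -4.52. Prrt2, a synaptic protein, averaged 13.3 CPM in EBD2 and had no count in EBD5, at least 76.1-fold lower. Rhox homeobox genes on the X chromosome moved the other way, with 3 of 4 higher as fitted and with the correction, Rhox6 33.5-fold and Rhox9 5.06-fold, and 1 lower.

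Genes of DNA replication, DNA repair, ribosome biogenesis and tRNA charging leaned lower, while ribosomal proteins and replication histones, described below, rose. Among DNA replication genes 34 of 50 were lower and 5 higher, median -0.35 with and without the correction. DNA ligase 1 (Lig1) stood at 334, 319 and 301 CPM in the EBD2 libraries and 122, 131 and 123 CPM in the EBD5 libraries (log2 fold change -1.32 ± 0.07 SE, edgeR adjusted p = 2.8e-08), and the polymerase subunit Pola2 and the helicase loader Cdc45 fell 2.63-fold and 2.41-fold. The 5 that rose were Rpa3, Orc6, Pcna, Dbf4 and Rrm2, by log2 changes of 1.07, 0.53, 0.49, 0.26 and 0.20. With the correction Rpa3 went to 0.37, Pcna (0.10) and Rrm2 (0.06) were no longer called and Dbf4 changed sign (-0.046). The cell cycle factor E2f1 fell 3.04-fold (log2 -1.60, and -0.87 with the correction). DNA repair genes fell in 35 of 56 and rose in 9 (38 and 5 with the correction), with the nuclease subunit Ercc1 down 2.51-fold, Fancl 2.47-fold and Rad51c 2.1-fold. Mitotic genes leaned lower to a lesser degree, with 20 of 50 lower and 9 higher, median -0.09. With the correction 28 were lower and 6 higher, median -0.23. Cyclin B1 (Ccnb1) rose 2.17-fold, and the kinetochore proteins Kif2c and Mad1l1 fell 2.03-fold and 2.65-fold.

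Ribosome biogenesis genes fell in 35 of 61 and rose in 8, median -0.28 (7 higher and 34 lower with the correction). Nucleolin (Ncl) stood at 1657, 1692 and 2283 CPM in the EBD2 libraries and 1215, 1202 and 1242 CPM in the EBD5 libraries. Nucleophosmin (Npm1) stood at 1216, 1277 and 1917 CPM in the EBD2 libraries and 941, 904 and 990.3 CPM in the EBD5 libraries (log2 -0.74, and -1.57 with the correction). EBD2 replicate 3 was the highest library for both. The processing factor Rrp12 fell 2.52-fold and the rRNA transcription factor Ubtf 1.9-fold. Aminoacyl-tRNA synthetases, which charge tRNAs, fell in most members: 28 of 37 were lower and 3 higher, median -0.52 (27 and 2 with the correction). The mitochondrial Sars2 fell 3.5-fold, Cars 1.95-fold and Vars 1.94-fold. The 3 that rose were Gars, Hars2 and Lars2, and the call of Hars2 (log2 fold change 0.19) was lost with the correction (0.05) and when any library but EBD2 replicate 2 was left out (0.18 to 0.22). Lars2 stood at 61.8, 65.1 and 60.1 CPM in the EBD2 libraries and 330.2, 1020.2 and 328 CPM in the EBD5 libraries, and its log2 fold change of 3.18 was 2.41 without EBD5 replicate 2. Translation initiation and elongation factors were split, with 22 of 68 higher and 27 lower, or 23 and 20 without EBD2 replicate 3, 22 and 21 without EBD5 replicate 1 and 19 higher and 27 lower with the correction. RNA helicases fell in 29 of 53 and rose in 8 (7 higher and 27 lower with the correction), with Ddx60 down 6.58-fold and Ddx43 4.19-fold.

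Proteasome subunits of the inducible and testis forms fell. Psmb10, a catalytic subunit of the immunoproteasome, stood at 25.3, 24.1 and 25.5 CPM in the EBD2 libraries and 6.29, 6.52 and 5.1 CPM in the EBD5 libraries (log2 fold change -2.06 ± 0.14 SE, edgeR adjusted p = 2.6e-07), and the activator subunits Psme1 and Psme2 fell 2.99-fold and 2.67-fold. Psma8, the testis form, fell 3.49-fold. Over the list 27 of 50 were lower and 7 higher, median -0.22 (-0.35 with the correction). Psme2b, a retrotransposed copy of Psme2, ran against its parent at 3.9, 3.26 and 2.64 CPM in the EBD2 libraries and 38.8, 36.4 and 36.5 CPM in the EBD5 libraries. Interferon response genes fell in 14 of 26 and rose in 4 (5 higher and 13 lower with the correction), with the factor Irf1 down 2.47-fold and Oasl2 2.7-fold. Ifit2 and B2m, the light chain of MHC class I, rose 3.51-fold and 2.34-fold (log2 1.23, and 0.48 with the correction for B2m).

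Chromatin and metabolic enzymes also changed. Histone methylation enzymes fell in 20 of 38 and rose in 7. With the correction 14 fell, a share close to the background, and 7 rose, a share below it. By the test against a fold of 1.5 there were 4 of each. In that list, Ash2l, a core subunit of H3K4 methyltransferases, stood at 609.7, 634 and 757 CPM in the EBD2 libraries and 316, 309 and 324 CPM in the EBD5 libraries. The remodeller list had 13 of 47 higher and 21 lower (9 higher and 21 lower with the correction). The BAF subunit Dpf1 and the CHD ATPase Chd5 fell 4.66-fold and 3.7-fold (log2 -1.89, and -1.29 with the correction for Chd5), and the BAF subunit Dpf3 and the BAF ATPase Smarca2 rose 7.14-fold and 2.75-fold. The Polycomb subunit Pcgf2 fell 2.6-fold. Glycolytic genes were split, with 12 of 25 higher and 10 lower, median 0.05 (12 higher and 7 lower with the correction, and 6 and 7 by the fold of 1.5). Among them hexokinase 1 (Hk1) fell 3.46-fold and the phosphofructokinases Pfkp and Pfkl 2.47-fold and 2.22-fold. Gapdh, Pgk1, Pgam1 and Eno1 rose 5.35-fold, 2.77-fold, 3.999-fold and 1.78-fold. Values of genes with pseudogene copies, such as Gapdh, are uncertain, as described below. Detoxifying enzymes leaned down, with 9 of 17 aldehyde dehydrogenases lower and 3 higher (3 higher and 10 lower with the correction), and 10 of 19 glutathione transferases lower and 3 higher (3 higher and 9 lower with the correction). Aldh1a2, which makes retinoic acid, fell 9.14-fold and the epoxide hydrolase Ephx2 3.9-fold.

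Several kinds of transcript that poly(A) selection usually depletes or that map to many copies were much higher in EBD5. CT010467.1 (chr17:39846353-39848827 in mm10), annotated as ribosomal RNA, stood at 158, 195 and 203 CPM in the EBD2 libraries and 8534, 7737 and 8325 CPM in the EBD5 libraries (log2 5.43, and 6.17 with the correction). AY036118 (chr17:39847113-39848035), annotated as a long intergenic RNA inside the interval and on the strand of CT010467.1, stood at 116, 185 and 358 CPM in the EBD2 libraries and 6043, 4292 and 5800.1 CPM in the EBD5 libraries. Reads of these 2 overlapping genes cannot be told apart. The EBD6 means were 216 and 69.1 CPM, so EBD5 alone was high. The log2 fold change of AY036118 went from 4.42 to 5.15 without EBD2 replicate 3. The mitochondrial rRNA mt-Rnr2 rose from 62.6 to 3842 CPM (log2 5.97, and 5.28 with the correction) and mt-Rnr1 from 82.9 to 1852 CPM (log2 4.49, and 3.79 with the correction), and all 7 tested mitochondrially encoded members rose, median 2.17 (1.46 with the correction). Replication histone genes, whose mRNAs end in a stem-loop and not a poly(A) tail, rose in 40 of 47 and fell in 2, median 2.66 (40 higher and 2 lower with the correction). The nuclear RNA Malat1 stood at 849, 871 and 975 CPM in the EBD2 libraries and 3024, 2869 and 3199.5 CPM in the EBD5 libraries, whereas the nuclear RNA Neat1 did not pass the test (log2 fold change 0.01 ± 0.07 SE, edgeR adjusted p = 0.94). The 10 most abundant genes held 2.91% to 3.25% of counts in the EBD5 libraries and 1.41% to 1.68% in the EBD2 libraries. What part RNA selection or library chemistry had in these rises was not tested.

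Processed pseudogenes, which are spliced copies of mRNAs inserted elsewhere in the genome, rose in 551 of 689 tested and fell in 61, with a median log2 fold change of 3.38, or 3.06 with the correction. Transcripts classed as TEC (awaiting experimental support) rose in 322 of 493 and fell in 22 (240 and 48 with the correction). Sense intronic transcripts rose in 32 of 51 and fell in 2 (25 and 7 with the correction). Long intergenic RNAs leaned the other way, 105 higher and 162 lower of 406 (84 and 196 with the correction). As a class, protein-coding genes with a named pseudogene copy were also higher more often than other protein-coding genes. The pseudogenes were not matched each to its own parent. Of 278 protein-coding genes with a named pseudogene copy, 164 were higher (59.0%) and 54 lower, median 0.46, against 31.5% higher and 38.4% lower of all other protein-coding genes, median -0.07. Without ribosomal protein genes the counts were 121 and 50 of 221, median 0.35. This look at parents was chosen after values were seen. Reads from a parent and its copies cannot be told apart with certainty, so values for such genes are uncertain. Gapdh, the glycolytic dehydrogenase, stood at 172, 178 and 173 CPM in the EBD2 libraries and 982, 877 and 940.0 CPM in the EBD5 libraries. The histone H3.3 gene H3f3a stood at 15.1, 19.6 and 17.3 CPM in the EBD2 libraries and 117, 130.2 and 121 CPM in the EBD5 libraries. The elongation factor gene Eef1a1 stood at 819, 847 and 908 CPM in the EBD2 libraries and 3047, 2656 and 3068 CPM in the EBD5 libraries, and the splicing factor gene Hnrnpf rose 4.81-fold. In EBD6 these 4 genes averaged 217, 12.1, 787 and 48.8 CPM, close to EBD2. Ribosomal protein genes rose in 58 of 86 and fell in 8 (59 higher and 9 lower with the correction), with Rps7 up 6.01-fold. The falls included the tissue-restricted forms Rpl39l (14.6-fold, log2 -3.86, and -4.60 with the correction), Rpl3l (10.8-fold) and Rpl10l (5.67-fold). Rps21 stood at 123, 137 and 156 CPM in the EBD2 libraries and 5.75, 35.8 and 9.82 CPM in the EBD5 libraries, and its log2 fold change of -3.02 was -4.19 without EBD5 replicate 2.

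**Figure D3:**
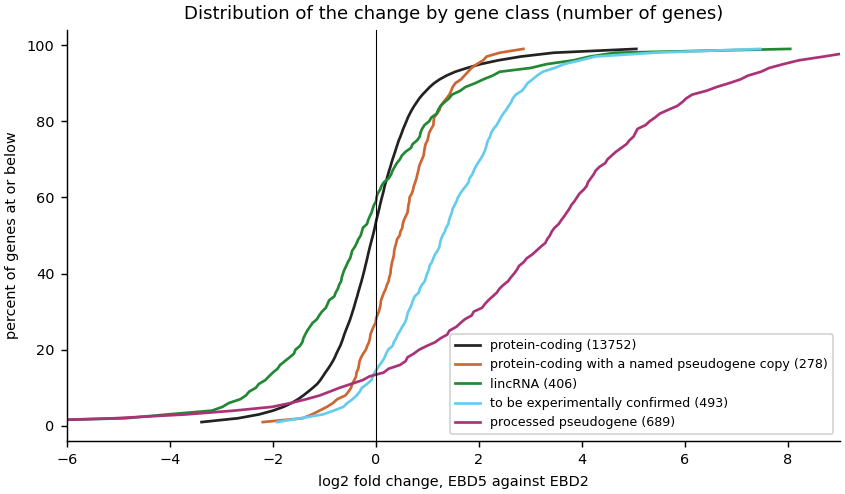
Cumulative distribution of the log2 fold change, EBD5 against EBD2, by annotated gene class, with the number of genes in brackets. Each curve gives the percent of genes at or below the value on the horizontal axis. The curve of processed pseudogenes lies far to the right (median 3.38) and that of protein-coding genes with a named copy lies to the right of all protein-coding genes (medians 0.46 and -0.06).

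Markers of cell types that an embryoid body can hold were summed per library to see what moved with these changes. The 6 visceral endoderm markers summed to 11.5 to 12.6 CPM in EBD2 and 1483 to 1517 CPM in EBD5, all 6 called higher. Most of that sum in EBD5 was cubilin, at a mean of 1125 CPM. The 5 parietal endoderm markers summed to 203 to 207 and 1016 to 1096 CPM, with all 4 tested members higher. Most of both parietal sums was Sparc, at means of 190 and 746 CPM. Embryonic stem cell markers, the cell type of the labels, summed to 1103 to 1260 and 833 to 908 CPM, with 1 of 5 tested higher and 2 lower. The 5 defining trophoblast markers summed to 0 to 0.816 and 2.51 to 3.97 CPM, with 2 of 4 tested higher, Cdx2 and Elf5 at 0 in EBD2 and Prl3d1 at 0 in both groups. A wider list of 20 trophoblast genes, which also holds Eomes, Peg10 and Krt18, summed to 363 to 367 and 1231 to 1279.6 CPM, with 11 of 17 tested higher and 2 lower, median 2.06 (11 higher and 1 lower with the correction). Fibroblast markers summed to 25.1 to 25.6 and 20.4 to 24.0 CPM, with 3 of 5 tested higher and 1 lower, Postn at 0 in EBD2 and Lum at 0 in both groups. Most of that sum in EBD2 was Thy1, at 21.7, 22.7 and 22.7 CPM in the EBD2 libraries and 6.47, 5.85 and 10.6 CPM in the EBD5 libraries. A wider list of 17 fibroblast genes summed to 60.2 to 63.6 and 103.6 to 107 CPM, with 6 of 12 tested higher and 3 lower (6 higher and 3 lower with the correction). Endothelial and blood markers summed to 162 to 167 and 78.0 to 82.2 CPM. Most of that sum was Pecam1 (2.52-fold lower), a gene also expressed in stem cells, the other 3 of the 4 tested were higher, and the embryonic globins Hbb-bh1 and Hba-x were at 0 in both groups. Neuroectoderm markers summed to 113 to 123 and 61.7 to 71.6 CPM, with 1 of 4 tested higher, Pax6 and Sox1 lower (2.06-fold and 1.75-fold) and Hes5 at 0 in EBD5. Muscle markers summed to 9.50 to 12.7 and 6.42 to 6.83 CPM, with 1 of 3 tested higher and 1 lower. Olig2 fell 4.75-fold (log2 -2.25, and -1.51 with the correction) and the sarcomere protein titin (Ttn) 5.46-fold, and the contractile genes Acta2 and Tagln of the wider fibroblast list rose 13.8-fold and 8.03-fold. What part cell composition had in the other gene groups was not tested.

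Genes on chromosome 6 were shifted upward, which was noticed after the values were seen. Of 660 protein-coding genes tested there, 387 were higher (58.6%) and 109 lower (16.5%), median log2 fold change 0.47, a fold of 1.39. On the other chromosomes 21.05% to 43.1% of genes were higher and medians ran from -0.34 to 0.10. With the correction the chromosome 6 median was 0.42, and the others ran from -0.17 to 0.02. The shift was broad: all 15 windows of 10 Mb had a median above 0, from 0.13 to 1.07. Among genes within a fold of 2 the median was 0.30 on chromosome 6 (456 genes) and -0.06 elsewhere. Chromosome 6 took 4.76% to 4.81% of protein-coding counts in the EBD2 libraries, 6.33% to 6.38% in EBD5 and 5.95% to 6.11% in EBD6. Library pairs of EBD5 against EBD2 had chromosome 6 medians of 0.43 to 0.46, and pairs of EBD5 against EBD6 had -0.05 to 0.00. Among the genes named above, Slc2a3, Podxl, Met, Gapdh, Peg10, Smo, Dppa3, Hnrnpf, Gars, Rpa3 and Gata2 lie on this chromosome and were higher, as was Tfec, and Atp6v0a4 and Vwf lie there and fell. So does Nanog, which stood at 176, 178 and 193 CPM in the EBD2 libraries and 232, 235 and 225 CPM in the EBD5 libraries and was higher as fitted (log2 fold change 0.32 ± 0.09 SE, edgeR adjusted p = 0.0059) but not with the correction (0.18). The cause of the shift was not tested.

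**Figure D4:**
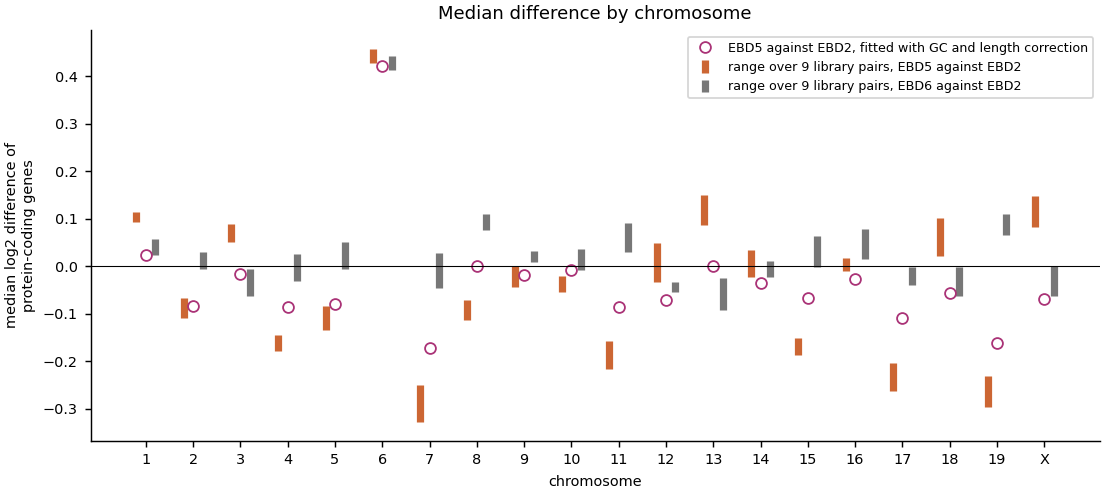
Median log2 difference of protein-coding genes by chromosome: circles, EBD5 against EBD2 with GC and length correction; bars, the range over 9 library pairs of EBD5 (left) and EBD6 (right) against EBD2. Chromosome 6 is at 0.42 with correction, and every other chromosome is between -0.17 and 0.02.

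Y-linked genes were also lower. The RNA helicase gene Ddx3y stood at 100.3, 101.5 and 99.0 CPM in the EBD2 libraries and 40.1, 47.5 and 46.8 CPM in the EBD5 libraries. The translation factor gene Eif2s3y stood at 68.7, 65.8 and 73.6 CPM in the EBD2 libraries and 29.1, 30.6 and 31.4 CPM in the EBD5 libraries. Uty fell 1.54-fold, Uba1y 9.18-fold and Zfy1 13.3-fold (log2 -3.73, and -4.56 with the correction), so the size of the fall differed between genes of the same chromosome. In EBD6 Ddx3y averaged 92.3 CPM, near EBD2, but the other genes that fell did not stay near EBD2 there. Uba1y averaged 16.1 CPM in EBD2, 1.73 in EBD5 and 3.60 in EBD6, and Zfy1 9.57, 0.714 and 0.928 CPM. Uty averaged 75.3, 48.9 and 56.1 CPM and Eif2s3y 70.4, 30.4 and 46.6 CPM in the same order. Gm47283, annotated as protein-coding on the Y chromosome, rose by a log2 change of 0.71.

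GC content went with the difference between EBD5 and EBD2 across the transcriptome. Over 13746 protein-coding genes, Spearman's rho between exonic GC content and the log2 fold change was -0.36, a description across genes, which share libraries and are not replicates. In the lowest of 10 equal bins of GC content (median 39.8%) the median log2 fold change was 0.29, with 54.5% of genes higher and 15.9% lower. In the highest bin (median 59.3%) it was -0.74, with 9.82% higher and 67.9% lower. The trend belonged to each EBD5 library: against the mean of all 9 libraries, rho was -0.51, -0.55 and -0.55 in EBD5, 0.13, 0.12 and 0.05 in EBD2 and 0.31, 0.44 and 0.44 in EBD6. The EBD6 libraries lay on the opposite side from EBD5 in these values, which share 1 mean and so depend on each other. Compared directly, rho was -0.57 for EBD5 minus EBD6 and 0.18 for EBD6 minus EBD2. The trend held at -0.30 to -0.38 within 5 bins of transcript length and at -0.27 to -0.40 within 4 bins of expression level. Transcript length had a weaker relation, from a median log2 fold change of -0.23 in the shortest of the 5 bins to 0.10 in the longest. GC content of the promoter, in 10718 genes, had a rho of 0.06 with the log2 fold change, against -0.38 for exonic GC content in the same genes, and the 2 GC measures had a rho of 0.10 with each other. How the RNA was fragmented, amplified or sequenced could not be told apart from the group, because no label gives a batch or an instrument for a library.

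Correcting for GC content and length left most calls in place. The correction also flattened the trend, and with it the shares called over the GC bins, which follows from its construction. Of the 11319 calls, 9131 kept call and direction, 141 turned and 2047 were lost, and 1658 genes were newly called. With the correction 5433 genes were higher and 5497 lower, and the share called higher ran from 29.0% to 34.8% over the GC bins. Some large differences were little touched, such as those of 3 genes: Dab2 went from 5.59 to 5.36, Amot from 5.84 to 5.76 and Pou2f2 from -3.05 to -2.74 on the log2 scale. Others moved more, such as Mafa and Col9a2 with their values above. Moderate falls of some GC-rich genes shrank, as in Ubtf (-0.92 to -0.35), Vars (-0.96 to -0.38), Dnm2 (-0.86 to -0.41) and the histone demethylase Kdm4b (-0.99 to -0.41).

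**Figure D5:**
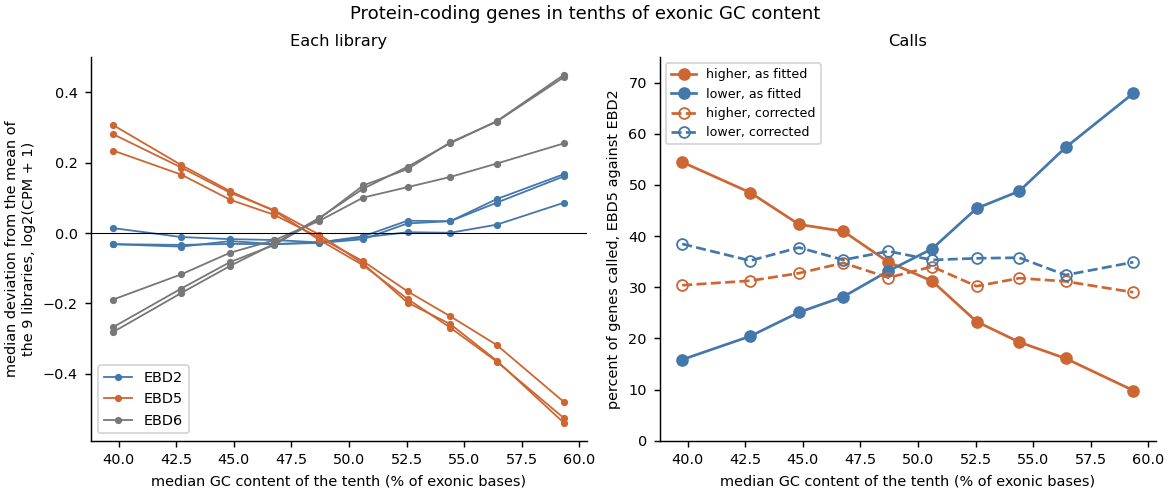
Protein-coding genes in 10 equal bins of exonic GC content. Left: median deviation of each library from the mean of the 9 libraries on the log2(CPM + 1) scale, falling with GC content in the 3 EBD5 libraries and rising in EBD6. Right: percent of genes called higher or lower in EBD5 against EBD2, as fitted (54.5% to 9.82% higher from the lowest to the highest bin) and with GC and length correction.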

How the data were processed

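The deposited table holds expected counts per gene that the authors made, 1 column for each of the 9 libraries, of which 90.9% to 94.6% were whole numbers. The submitters' processing notes list the genome mm10 and the tools DESeq2 1.38.3, edgeR 3.40.2, RSEM 1.3.30, STAR 2.7.10a and cutadapt 1.18, with no role or order. The annotation release was not given in the sources used here, nor was the strand setting. A second deposited table, which holds the EBD6 libraries, was not used.

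Expected counts were rounded to whole numbers, near-identical libraries were summed (7 samples), and rows were kept by edgeR's filterByExpr. edgeR 4.0.16 (R 4.3.3) fitted 1 quasi-likelihood model to the 3 groups with TMM scaling, 4 residual degrees of freedom and a biological coefficient of variation of 6.72%. Calls were made at a Benjamini-Hochberg adjusted p of 0.05 over all tested genes. The median log2 level in 10 bins of exonic GC content by 5 of exonic length, per sample against the mean of samples, gave the offsets of the correction. GC content, length, class and position came from GENCODE M21. A floor of 3 counts bounds folds against a group at 0, and 95% counting intervals are exact. Intervals and floors cover counting error only. limma 3.58.1 and DESeq2 1.42.0 served as alternatives. On simulated data with known changes, the test recovered 62%, 90%, 100% and 100% of genes changed by 0.5, 1, 2 and 3 on the log2 scale. The simulation changed 50 genes of each size among 16168, all well counted, with the same spread for every gene. Its rates therefore do not apply to genes with few counts, nor to data in which most genes change.

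The genes and lists were chosen with earlier results of these data known. Genes named were up to 5 per list and direction with the largest change among those called, at 5 CPM or more in the higher group and with no overlap. The 20 largest rises and falls at 10 CPM or more, the 10 largest gains and losses in CPM, a fixed set of lineage genes and members needed for small counts were also eligible. A few eligible genes are not reported here. Of 255 genes named, 20 lie outside this rule and were singled out after their values were seen.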

Additional observations from a re-analysis of the deposited data

Results flagged for a closer look

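A row named MR3, which is not a gene symbol of the annotation, held counts that no comparison here used. It had at least 856 expected counts in every EBD6 library and at most 2 in any EBD2 or EBD5 library. What it represents is not given in the sources used here.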

How the results depend on the processing

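The counts of 5641 higher and 5678 lower genes stayed within 1.5 times under every alternative run except the test against a fold of 1.5 (2972 and 2634), which asks for more than a difference from 0. DESeq2's Wald test called 4925 and 4518, no filter on low counts 6511 and 6561, and a filter of 5 CPM in 3 libraries 4775 and 4778. Leaving out 1 library gave 5151 to 5628 higher and 5089 to 5437 lower. Spearman's correlation with GC content ran from -0.378 to -0.345 over the 5 alternatives for that trend, and from -0.377 to -0.358 when 1 library was left out. Over 19 alternatives and 255 named genes, 4784 of 4837 values kept direction and call, 49 lost the call (19 under the fold of 1.5) and Pou5f1 gained it with no filter. Dbf4 changed sign to -0.046 with GC and length correction, -0.14 with GC correction and -0.035 with the replicate block and that correction, by the construction of the correction. Of 58 lists checked under all alternatives, 50 had the same leading direction in each, with a tie counted as a change. The formative and primed epiblast list was not among those checked. The exceptions were amino acid transport, sugar and monocarboxylate transport, glycolysis, translation factors, histone methylation enzymes, Notch, MiT and Maf factors and Zfp genes.

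Replicate numbers did not pair the samples (correlations of same-numbered deviations 0.05, -0.01 and 0.04). A replicate block on the 9 separate libraries called 5821 higher and 5691 lower, and 5543 and 5565 with GC and length correction. Depth limits the low genes most: folds resting on 0 to 3 counts in a group are bounds or ratios with wide intervals.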

Other observations

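Several genes not named above had wide differences, and they were singled out after their values were seen. Prss12 (motopsin), a secreted serine protease known from neurons, stood at 0.17, 0.326 and 0.176 CPM in the EBD2 libraries and 95.1, 101.3 and 102 CPM in the EBD5 libraries, a 415-fold difference, and its EBD6 mean was 67.1 CPM. Nostrin, a membrane-bending adaptor of endothelial cells, stood at 0.339, 0.326 and 0.176 CPM in the EBD2 libraries and 40.1, 40.4 and 37.02 CPM in the EBD5 libraries. Both were near absent from EBD2 and even across the EBD5 libraries. Cadherin 6 (Cdh6), a cell adhesion molecule of embryonic epithelia, stood at 0.339, 0.163 and 0 CPM in the EBD2 libraries and 51.2, 51.6 and 48.5 CPM in the EBD5 libraries, a ratio of 298 (exact 95% counting interval 102 to 1449), and its log2 fold change of 8.11 was 9.0 without EBD2 replicate 1. Tspan12, a tetraspanin that assists Frizzled receptors, rose 19.3-fold and S100a1, a small calcium-binding protein, 11.4-fold. Among the falls, the myosin Myo1f, known from leukocytes, stood at 23.8, 28.1 and 23.8 CPM in the EBD2 libraries and 1.26, 1.003 and 1.32 CPM in the EBD5 libraries. The inositol transporter Slc5a11 fell 4.32-fold and the mitochondrial aldehyde dehydrogenase Aldh2 2.23-fold. Fibronectin (Fn1), a major matrix glycoprotein, stood at 1027, 1020.0 and 1132 CPM in the EBD2 libraries and 542, 565 and 555 CPM in the EBD5 libraries, a 1.94-fold fall. The groups did not overlap in any of these 9 genes, which follows from their choice and was also seen in 77.8% of all tested genes.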
